A study of Mus musculus with 4 samples.

Results

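Peroxisomes are small organelles bounded by a single membrane that shorten very long-chain and branched fatty acids, carry out the first steps of ether lipid synthesis and break down the hydrogen peroxide that their oxidases make. Their proteins are encoded in the nucleus and made in the cytosol. The peroxins, encoded by the Pex genes, build the membrane, import the finished enzymes and control division, and the chain-shortened acyl groups that leave the organelle are oxidised further in mitochondria. In muscle, where mitochondria oxidise most long-chain fatty acids, peroxisomes handle the chains that mitochondria take poorly.

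The transcripts described here were those of 34 mouse genes chosen by function: 13 Pex genes of peroxisome biogenesis and 21 genes for peroxisomal enzymes, transporters and membrane proteins. Through the RefSeq accessions of the array probes, 33 of the 34 were found on the array, on 39 of its 39429 probes, and Far1, an enzyme of ether lipid synthesis, had no matched probe. A probe was tested where it was well above background on every array in at least 1 of the 2 channels. That held for all 13 Pex genes and for 18 of the 21 others, so that 31 of the 13712 genes tested belonged to the set. Ehhadh, the bifunctional enzyme of peroxisomal beta-oxidation, was well above background on 0 arrays in the control channel and on 1 in the palmitate channel, and Abcd2, a transporter of very long-chain acyl-CoA, on 0 in either, so no ratio is given for either gene.

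The RNA came from C2C12 myoblasts, a line derived from mouse muscle satellite cells, kept for 48 h in 5% foetal bovine serum with 0.1 mmol/l palmitate or without it. Palmitate, the commonest saturated fatty acid in plasma, was dissolved in ethanol and given bound to fatty-acid-free bovine serum albumin. The control cultures received the same ethanol and albumin (the sample labels instead give the control medium as 10% serum). There were 4 arrays on 1 slide, each with the RNA of 1 control culture in the green (Cy3) channel and of 1 palmitate culture in the red (Cy5) channel. Every value below is the log2 ratio of red over green, so that a positive value means more signal after palmitate, and it is given as mean ± SD over the 4 arrays unless stated otherwise.

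Dyes were never exchanged, so an effect of palmitate and an effect of the dye on a probe cannot be told apart. The 4 ratios of a gene come from 4 pairs of cultures of 1 cell line, labelled as biological replicates. Array 1 stood apart: over all tested probes its log2 ratios correlated at r = -0.076 with the mean of arrays 2 to 4, whereas those 3 correlated with each other at 0.677 to 0.771. With the single arrays 2, 3 and 4 its correlations were 0.057, -0.157 and -0.157. Which RNA was in which channel of array 1 was taken from the labels and was not tested, and every mean and every count over 4 arrays below rests on it. The 2 ribosomal RNA probes had a median log2 ratio of 1.22 on array 1 and of -2.40 to -3.01 on the others. All 8 myoblast markers were well above background on every array in both channels. Of 5 adipocyte markers 4 were so on no array, and Fabp4 was so on every array in both channels. So were 1 of 3 leukocyte markers with a probe (Cd3e) and 1 of 3 endothelial markers (Pecam1), while 2 endothelial markers were above background on no array. Of 6 markers of differentiated muscle 5 were tested, with array medians of 0.10 to 0.27, and their part in the results below was not tested.

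The transcripts of 9 of the 31 peroxisomal genes differed in the same direction on all 4 arrays by a mean of at least 0.2 on the log2 scale. The palmitate channel was higher for Pex3, Ech1, Hsd17b4 and Pex2, and lower for Pex11a, Pex6, Decr2, Acot8 and Pex16. That makes 4 of 31 higher, where the same rule held for 10.1% of all tested genes, and 5 of 31 lower, against 12% of all tested genes. Direction alone was shared by the 4 arrays for 6 genes with higher ratios (15.6% of all tested genes) and for 7 with lower ratios (16.7%), Pex13 and Pex14 joining the first and Pex10 and Pex11g the second. With the normalisation used here, no peroxisomal gene reached a 1.6-fold mean difference with 1 sign on 4 arrays. The same rule held upwards for 0.54% of all tested genes and downwards for 0.941%. By the sign of the mean alone, 13 genes were above 0 (50.2% of all tested genes) and 18 below (49.8%). The RNA was extracted from whole cultures, in which fewer cells that carry a transcript and less of it in each cell cannot be told apart.

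None of these differences passed the test across the array. With limma on the 4 ratios, 0 of 31 genes, and 0% of all 24169 probes, had a Benjamini-Hochberg adjusted p under 0.05, while 21.9% of the probes had an unadjusted p under 0.05. The smallest adjusted p among the peroxisomal genes was 0.118, that of Hsd17b4. Before adjustment limma gave p under 0.05 for 4 peroxisomal genes with higher ratios (10.8% of all tested genes) and for 5 with lower ratios (13.3%), the same 9 genes as above. The methods' t-test, run here on intensities processed as described below, gave 0 peroxisomal genes after adjustment and 9 before it. Of all 24055 probes it gave 10 after adjustment and 17.6% before it. For 1 gene the exact two-sided sign-flip test over 4 arrays cannot go below p = 0.125.

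**Figure D1:**
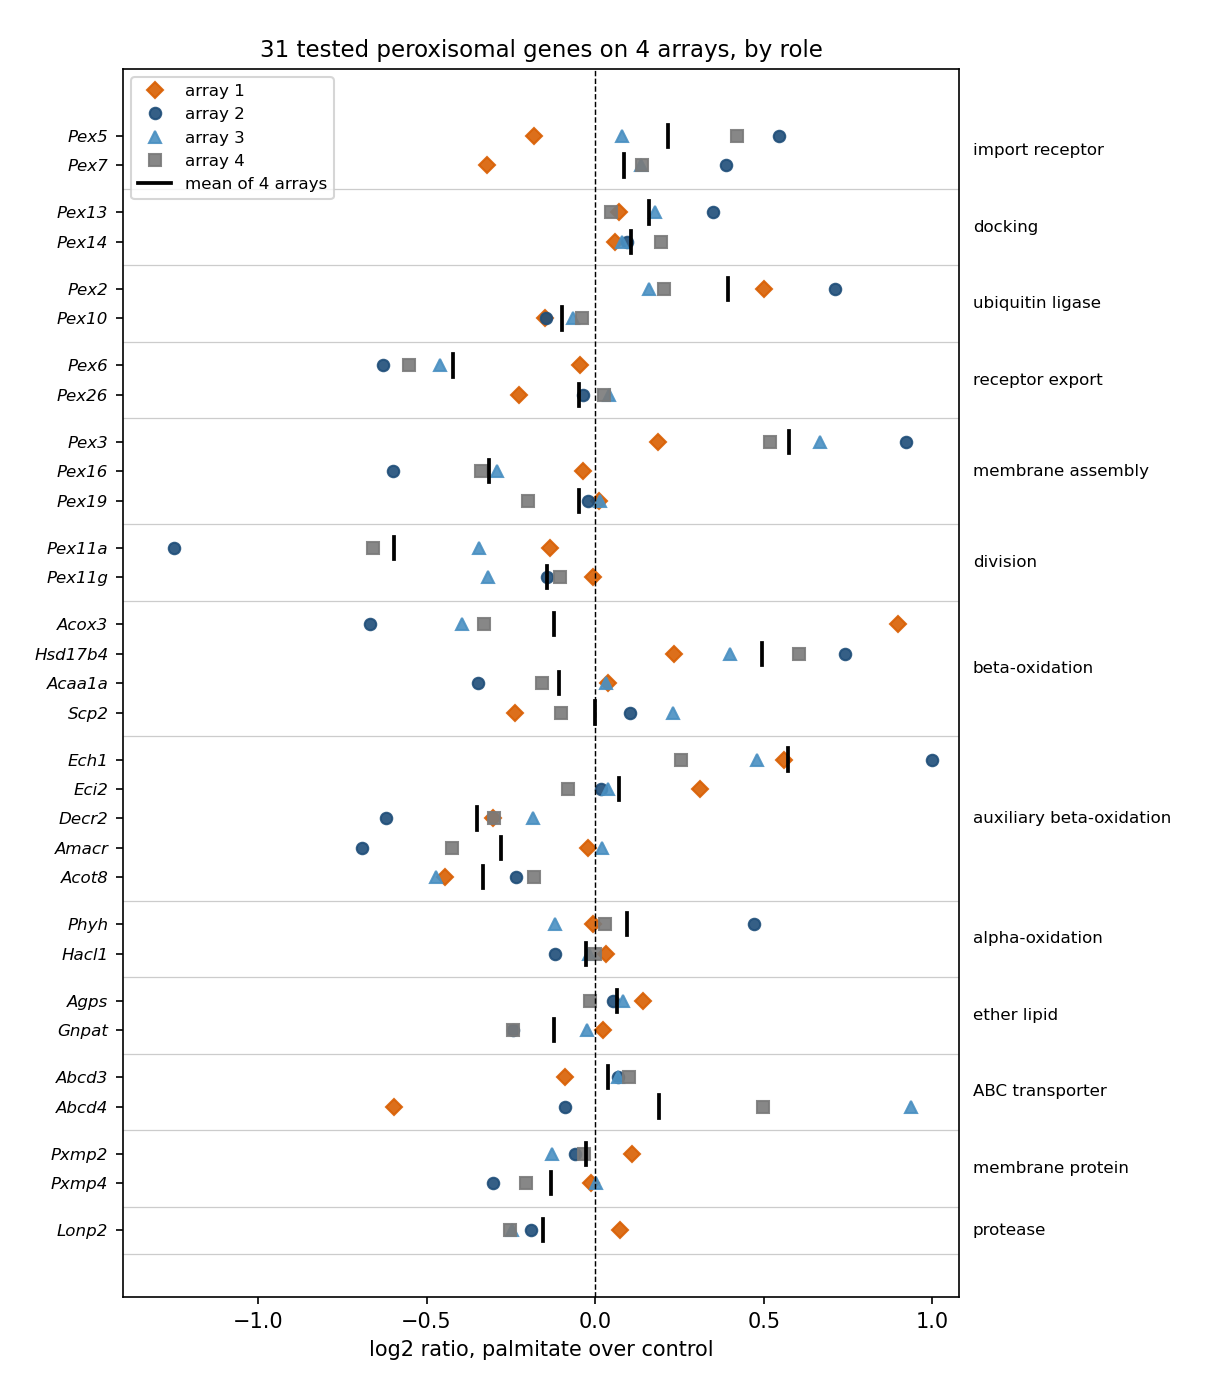
Log2 ratio of palmitate over control (horizontal axis) for the 31 tested peroxisomal genes, 1 row per gene, grouped by role; each symbol is 1 array and the black bar the mean of 4. For most genes the 4 arrays lie on either side of 0, and Pex3, Ech1, Hsd17b4 and Pex2 lie wholly to the right and Pex11a, Pex6, Decr2, Acot8 and Pex16 wholly to the left.

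Among the import receptors, Pex5, which carries enzymes with the C-terminal targeting signal, had log2 ratios of -0.18, 0.55, 0.08 and 0.42 on arrays 1 to 4, a mean of 0.22 ± 0.33. Pex7, the receptor for the N-terminal signal, had 0.086 ± 0.30. Both were lower on array 1 and higher on the other 3 arrays. At the docking complex of the membrane, Pex13 (0.16 ± 0.14) and Pex14 (0.11 ± 0.061) were higher on 4 of 4 arrays by small amounts.

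Pex2 and Pex10 encode subunits of the ubiquitin ligase that marks the import receptors for recycling. For Pex2 the log2 intensity was 11.39, 11.50, 11.49 and 11.49 in the control cultures and 11.89, 12.21, 11.65 and 11.69 in the palmitate cultures of arrays 1 to 4. Every palmitate culture lay above every control culture, and the ratio averaged 0.39 ± 0.26 (95% interval by limma 0.12 to 0.67, adjusted p = 0.143). Pex10, of the same complex, was at -0.10 ± 0.055 and lower on 4 of 4 arrays, so that these 2 subunits lay on opposite sides of 0.

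Pex6 is an ATPase that, tethered by Pex26, pulls the receptors back out of the membrane. Its brightest probe read 10.99, 10.97, 10.69 and 10.53 on the log2 intensity scale in the control cultures and 10.94, 10.34, 10.23 and 9.98 in the palmitate cultures. The ratio was close to 0 on array 1 (-0.05) and between -0.46 and -0.63 on arrays 2 to 4, for a mean of -0.42 ± 0.26 (limma adjusted p = 0.134). The levels overlapped, since the palmitate culture of array 1 read above the control cultures of arrays 3 and 4. A second Pex6 probe gave 0.040 ± 0.20, with 0.33 on array 1, so the 2 probes of this gene disagreed. Pex26 was at -0.049 ± 0.12.

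Pex3, Pex16 and Pex19 insert proteins into the peroxisomal membrane: Pex19 is the soluble chaperone, Pex3 its docking receptor and Pex16 an anchor for Pex3. Pex3 had the largest positive mean of the Pex genes. Its log2 intensity was 10.41, 10.39, 10.41 and 10.57 in the control cultures and 10.60, 11.32, 11.08 and 11.08 in the palmitate cultures, with no overlap and the smallest difference on array 1. The mean ratio was 0.57 ± 0.31, a 1.49-fold higher signal (95% interval by limma 0.27 to 0.88 on the log2 scale, adjusted p = 0.119). Pex16 went the other way. It read 10.54, 10.62, 10.58 and 10.58 in the control cultures against 10.51, 10.02, 10.29 and 10.24 in the palmitate cultures, again without overlap but by only 0.04 on array 1, and averaged -0.32 ± 0.23 (limma adjusted p = 0.176). Pex19 was at -0.048 ± 0.10.

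The Pex11 genes encode membrane proteins that elongate and divide peroxisomes. Pex11a had the largest negative mean of the 31 genes: its log2 intensity was 9.92, 9.97, 9.90 and 9.90 in the control cultures and 9.78, 8.72, 9.55 and 9.24 in the palmitate cultures. The control cultures lay within a narrow band, all palmitate cultures were below it, and the difference ranged from -0.13 on array 1 to -1.25 on array 2. The mean of -0.60 ± 0.49 is a 1.51-fold lower signal, with a 95% interval by limma of -1.04 to -0.16 and an adjusted p of 0.151. Pex11g was at -0.14 ± 0.13, lower on 4 of 4 arrays.

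**Figure D2:**
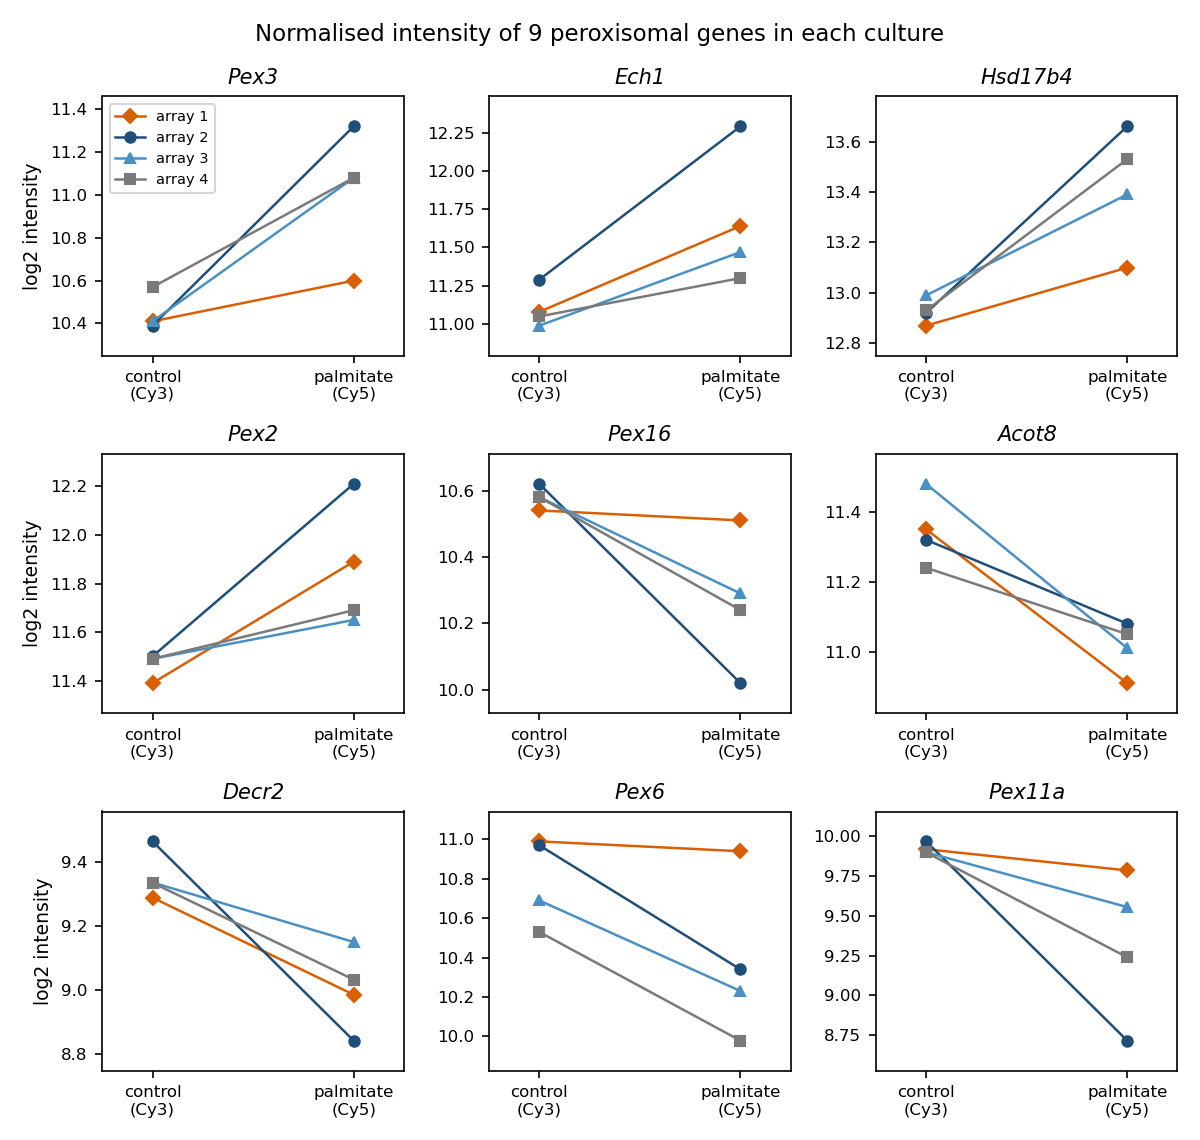
Normalised log2 intensity in the control (Cy3) and palmitate (Cy5) channel for the 9 peroxisomal genes with the same sign on 4 arrays and a mean of at least 0.2; each line joins the cultures of 1 array, and the vertical scales differ between panels. All lines slope upwards for Pex3, Ech1, Hsd17b4 and Pex2 and downwards for the other 5, and the line of array 1 is the flattest for Pex3, Hsd17b4, Pex16, Pex6 and Pex11a.

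The sequences before the transcription start are printed for the Pex genes with the highest and the lowest mean ratio and, beside them, for 1 higher and 1 lower gene with GC boxes, so that the letters behind the motif counts can be read. RefSeq windows (build GRCm38.p6) were matched for 27 of the 34 genes and for 7 of the 9 above, and the 250 bases before the start were searched on both strands for the GC box GGGCGG and the CCAAT box. Pex3 and Pex11a had neither motif, and capitals in the other sequences mark the GC boxes. The windows are Pex3, chr10:13553143-13553392, minus strand; Pex11a, chr7:79743132-79743381, minus strand; Ech1, chr7:28825088-28825337, plus strand; and Pex6, chr17:46711226-46711475, plus strand.
Pex3: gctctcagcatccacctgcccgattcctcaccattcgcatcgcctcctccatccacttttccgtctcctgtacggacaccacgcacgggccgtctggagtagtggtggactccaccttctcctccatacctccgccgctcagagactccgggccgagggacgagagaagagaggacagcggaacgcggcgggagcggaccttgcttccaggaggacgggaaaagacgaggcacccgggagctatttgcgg
Pex11a: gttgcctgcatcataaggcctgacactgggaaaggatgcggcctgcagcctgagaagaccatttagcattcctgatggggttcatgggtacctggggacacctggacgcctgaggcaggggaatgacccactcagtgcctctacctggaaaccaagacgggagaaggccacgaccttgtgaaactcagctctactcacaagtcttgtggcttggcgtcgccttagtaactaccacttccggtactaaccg
Ech1: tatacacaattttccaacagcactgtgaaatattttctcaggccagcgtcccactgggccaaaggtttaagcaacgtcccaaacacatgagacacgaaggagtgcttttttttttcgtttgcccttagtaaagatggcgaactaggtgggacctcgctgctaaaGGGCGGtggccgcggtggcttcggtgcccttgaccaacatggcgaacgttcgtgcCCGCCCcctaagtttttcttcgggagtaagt
Pex6: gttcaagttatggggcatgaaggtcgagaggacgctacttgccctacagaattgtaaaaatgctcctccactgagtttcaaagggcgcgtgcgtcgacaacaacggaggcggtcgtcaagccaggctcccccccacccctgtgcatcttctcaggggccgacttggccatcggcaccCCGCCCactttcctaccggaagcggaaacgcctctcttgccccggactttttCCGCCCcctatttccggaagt

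In Ech1, a gene with higher ratios, the GC boxes lay 86 to 81 and 31 to 26 bases before the start, and in Pex6, a gene with lower ratios, 73 to 68 and 21 to 16 bases before it. Among the higher genes with a window, Ech1 held a GC box and Pex3 did not; among the lower genes, Pex6, Pex16, Decr2 and Acot8 did and Pex11a did not. A GC box was in the windows of 21 of the 27 genes and in 32.7% of all windows of this length, and a CCAAT box in those of 11 genes and in 33.8% of all windows. A gene with several start sites counted once here, as holding a motif if any of its windows did. The 27 genes had 32 windows, whereas the shares over all windows counted each window singly, so the 2 figures are not like for like. Of the Pex16 windows, 1 held the GC box and the other did not. The median GC content was 58.2% for the windows of the 27 genes and 52.4% for all. The letters AGGTCA, the half-site that nuclear receptors bind, were found for Pex11g and Scp2 (14% of all windows), and the E-box CACGTG for Gnpat and Lonp2 (6.02% of all windows). No window of the 27 genes held the DR1 element bound by peroxisome proliferator-activated receptors (AGGTCA, any base, AGGTCA) with at most 2 mismatches in its 12 fixed letters, a match present in 3.24% of all windows.

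Peroxisomal beta-oxidation runs from an acyl-CoA oxidase through a bifunctional enzyme to a thiolase, and its genes did not share a direction. Hsd17b4, the bifunctional enzyme for branched and very long chains, had log2 intensities of 12.87, 12.92, 12.99 and 12.93 in the control cultures and 13.10, 13.66, 13.39 and 13.53 in the palmitate cultures. The palmitate cultures were all above the controls, and the ratio averaged 0.49 ± 0.22, or 1.41-fold (95% interval by limma 0.24 to 0.75, adjusted p = 0.118). The other bifunctional enzyme, Ehhadh, was the gene given no ratio above. Acox3, an oxidase of branched chains, had a ratio of 0.90 on array 1 but of -0.67, -0.39 and -0.33 on arrays 2 to 4, and its second probe was at 0.010 ± 0.11. The thiolases Acaa1a (-0.11 ± 0.18) and Scp2 (-0.0015 ± 0.21) had ratios on both sides of 0. The probe of Acaa1a may also take signal from its close paralog Acaa1b.

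The auxiliary enzymes handle double bonds and methyl branches. Ech1, the dienoyl-CoA isomerase that moves double bonds of unsaturated chains, read 11.08, 11.29, 10.99 and 11.05 in the control cultures and 11.64, 12.29, 11.47 and 11.30 in the palmitate cultures. The levels did not overlap, although the palmitate culture of array 4 lay close to the control culture of array 2. The mean ratio was 0.57 ± 0.31, or 1.49-fold (limma adjusted p = 0.12). Decr2, the dienoyl-CoA reductase that also acts on unsaturated chains, was lower. Its log2 intensity was 9.29, 9.46, 9.34 and 9.33 in the control cultures and 8.99, 8.84, 9.15 and 9.03 in the palmitate cultures, without overlap, and the ratio averaged -0.35 ± 0.19 (limma adjusted p = 0.136).

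Acot8, a thioesterase that releases acyl groups from CoA, read 11.35, 11.32, 11.48 and 11.24 in the control cultures and 10.91, 11.08, 11.01 and 11.05 in the palmitate cultures on its brightest probe. These levels did not overlap and gave -0.33 ± 0.15 (limma adjusted p = 0.131), but a second Acot8 probe gave 0.11 ± 0.16. Amacr, the racemase of branched acyl-CoA, was at -0.28 ± 0.34, with -0.69 and -0.42 on arrays 2 and 4 and -0.02 and 0.02 on arrays 1 and 3. Eci2, an enoyl-CoA isomerase with the close paralog Eci3, was at 0.072 ± 0.17.

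Levels of the 4 palmitate cultures lay wholly above those of the 4 control cultures for 4 peroxisomal genes, Hsd17b4, Pex2, Ech1 and Pex3, an arrangement found in 5.42% of 13641 genes. They lay wholly below for 4, Acot8, Pex16, Pex11a and Decr2, against 8.39% of those genes. This arrangement compares cultures of different arrays, so it also rests on the normalisation of intensity between arrays.

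The remaining enzymes and membrane proteins lay closer to 0. In alpha-oxidation, which removes 1 carbon from phytanic acid, Phyh had 0.094 ± 0.26 and Hacl1 -0.026 ± 0.065. In ether lipid synthesis, Gnpat and Agps, which make the first ether-linked precursor, had -0.12 ± 0.14 and 0.065 ± 0.065. Abcd3, a transporter that brings acyl-CoA into the organelle, had 0.037 ± 0.086. The membrane proteins Pxmp2 and Pxmp4 had -0.028 ± 0.099 and -0.13 ± 0.15, and Lonp2, the protease of the peroxisomal matrix, had -0.15 ± 0.15. Abcd4, a transporter of the same family that acts in lysosomes, varied most after Acox3, with ratios of -0.60, -0.09, 0.94 and 0.50 on arrays 1 to 4. Over the 22 tested genes outside the 9 described above, mean ratios ran from -0.28 to 0.22.

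The biogenesis genes and the other peroxisomal genes had medians near 0 and near each other. The median of the gene means was -0.048 for the 13 Pex genes, with a range of -0.60 to 0.57, and -0.027 for the 18 other genes, with a range of -0.35 to 0.57. The median over all 13712 tested genes was 0.0013. On the single arrays the median of the Pex genes was -0.035, -0.02, 0.04 and 0.026 and that of the other genes 0.028, -0.10, 0.01 and -0.09. The Pex median minus the other was -0.064 on array 1 and 0.083, 0.03 and 0.12 on arrays 2 to 4. Without regard to sign, the median size of the mean ratio was 0.16 for Pex genes, 0.12 for the others and 0.14 for all tested genes.

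**Figure D3:**
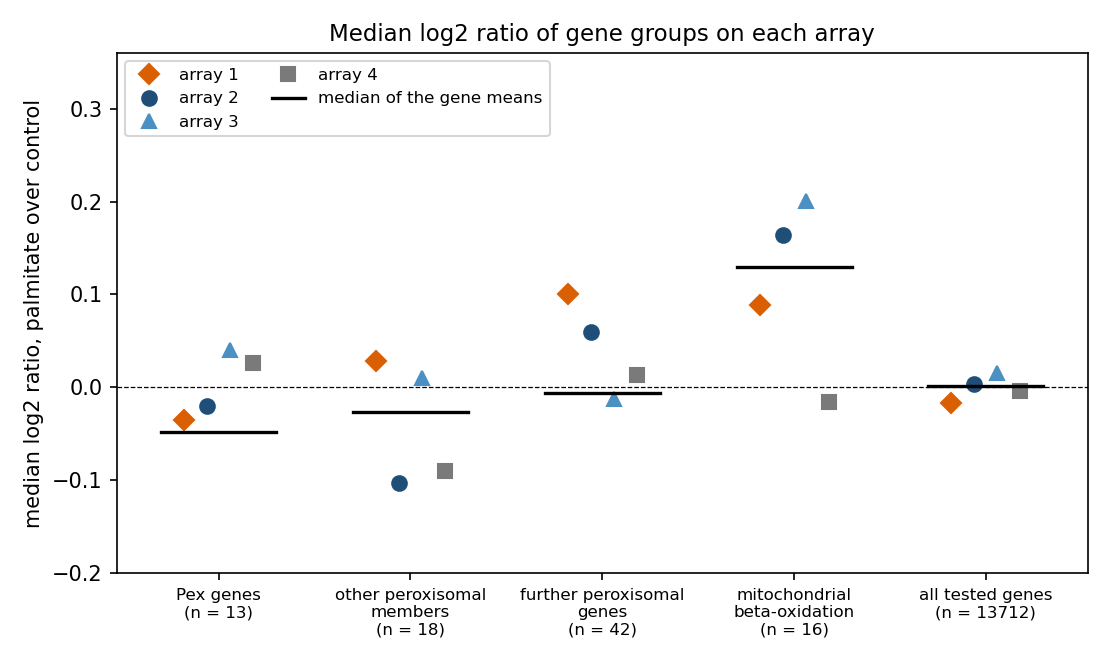
Median log2 ratio of palmitate over control (vertical axis) on each of the 4 arrays (symbols) for Pex genes, other peroxisomal genes of the set, further peroxisomal genes, mitochondrial beta-oxidation genes and all tested genes; the black line is the median of the gene means. The medians of the Pex genes and of the other genes of the set lie between -0.10 and 0.04 on every array, and that of the mitochondrial genes is above 0 on 3 of 4.

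Leaving out array 1 changed what passed the test. With arrays 2 to 4 alone, limma gave an adjusted p under 0.05 for 3 peroxisomal genes with higher ratios (8.76% of all tested genes) and for 4 with lower ratios (9.84%). The 3 were Pex3 (mean 0.70, adjusted p = 0.0093 by limma), Hsd17b4 (0.58, 0.0131) and Ech1 (0.58, 0.0382). The 4 were Pex6 (mean -0.55, limma adjusted p = 0.0114), Acox3 (-0.46, 0.0255), Pex11a (-0.75, 0.0259) and Pex16 (-0.41, 0.0343). Pex2, Decr2 and Acot8 stayed above the threshold, and the second probes of Pex6 and Acox3 bear the limits given above. Leaving out any other array let no peroxisomal gene pass.

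Array 1 and the other arrays ordered the 31 genes differently: across genes, which are not independent, the ratios of array 1 correlated at r = 0.108 with the mean of arrays 2 to 4, while pairs of arrays 2 to 4 correlated at 0.646 to 0.858. All ratios of 1 array share its 2 RNA samples and its dye correction. The 9 genes above nevertheless had the same sign on array 1 as on the others, which the rule that picked them requires. Of the genes outside the 9, Acox3, Abcd4, Pex5 and Pex7 were among those with the opposite sign on array 1 to the mean of the others.

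**Figure D4:**
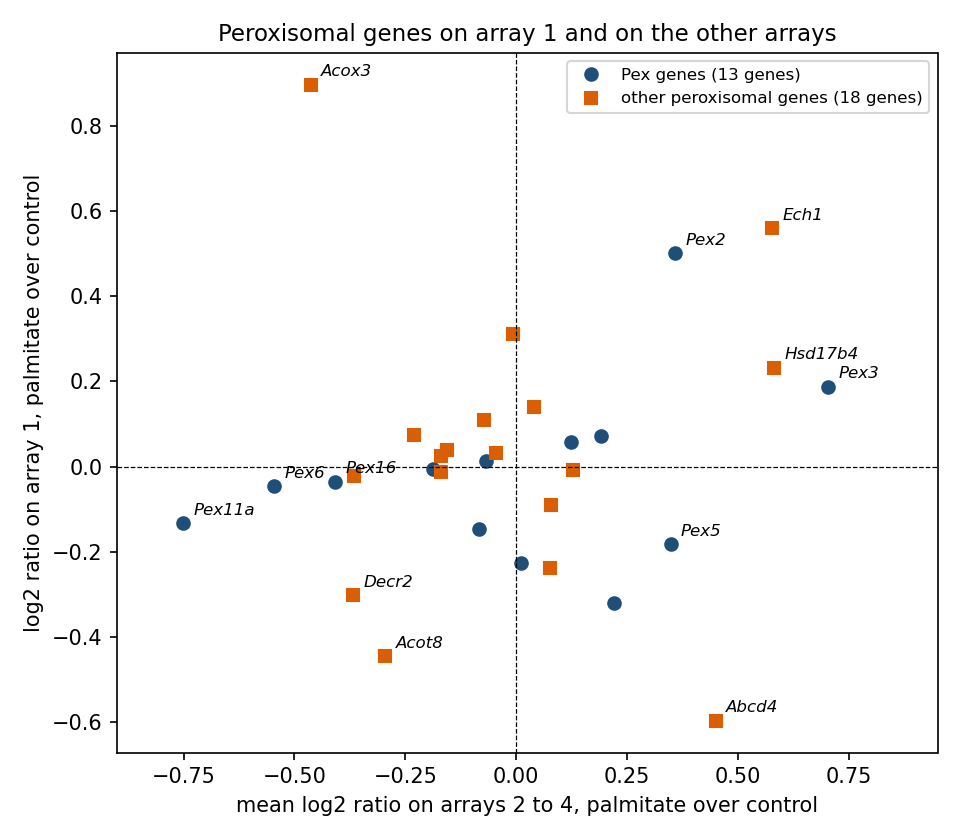
Log2 ratio on array 1 (vertical axis) against the mean log2 ratio on arrays 2 to 4 (horizontal axis) for 13 Pex genes (circles) and 18 other peroxisomal genes (squares), with dashed lines at 0. The points follow no diagonal, and Acox3 and Abcd4 lie farthest out in the quadrants where array 1 and the others differ in sign.

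The rest of the peroxisome was read from 59 further peroxisomal genes, of which 42 were tested. In limma 0 had an adjusted p under 0.05, and before adjustment 7 were higher and 6 lower, beside 10.8% and 13.3% of all tested genes. With arrays 2 to 4 alone 4 were higher and 4 lower at an adjusted p under 0.05, beside 8.76% and 9.84% of all tested genes. Their median was -0.0057, close to that of all tested genes. Some were named after their values were seen. Catalase (Cat), which breaks down hydrogen peroxide, was higher on 4 of 4 arrays, at 0.37 ± 0.20 on its brightest probe. Acbd5, a membrane protein that binds acyl-CoA and tethers peroxisomes to the endoplasmic reticulum, was at 0.42 ± 0.14 and higher on 4 of 4 arrays. Dimmer probes gave 0.70 ± 0.54 for Cat and 0.097 ± 0.11 for Acbd5, the latter higher on 3 of 4 arrays.

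The mitochondrial beta-oxidation genes, 16 of 16 tested, had a median of 0.13, and 2 were higher and 1 lower before adjustment (10.8% and 13.3% of all tested genes), with 0 past an adjusted p of 0.05 in limma. Acadl, the long-chain acyl-CoA dehydrogenase, had ratios of 0.20, 1.11, 1.22 and 0.94 on arrays 1 to 4, a mean of 0.87 ± 0.46 (limma adjusted p = 0.118). This mean was larger than that of any of the 31 peroxisomal genes. Acads, the short-chain dehydrogenase, was at -0.55 ± 0.33 and lower on 4 of 4 arrays.

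Some enzymes have a counterpart in each organelle, and 3 such pairs had a ratio for both genes. The enoyl-CoA isomerases Eci2 and Eci1 were at 0.072 ± 0.17 and 0.015 ± 0.14. The dienoyl-CoA reductases Decr2 and Decr1 were at -0.35 ± 0.19 and -0.10 ± 0.16, although a dimmer Decr1 probe gave 0.22 ± 0.16. The thiolases Acaa1a and Acaa2 were at -0.11 ± 0.18 and 0.22 ± 0.20, and Hadha, the mitochondrial counterpart of Ehhadh, was at 0.24 ± 0.18. The differences between the members of these pairs were not tested.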

How the data were processed

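RNA of 4 control and 4 palmitate cultures was hybridised to 4 two-colour Agilent whole mouse genome arrays. The authors deposited scanner output from Feature Extraction 10.7.3.1 holding median and processed signal intensity per spot and a log10 ratio of red over green, and a value table of log2 ratios, which equalled the ratio of the deposited processed signals. Here the deposited median intensity and its background were corrected by normexp (offset 50) in limma 3.58.1 and loess-normalised within each array (44397 spots per array), with control and outlier spots at weight 0. Spots of 1 probe were averaged. The intensities given per culture were also quantile-normalised between arrays (Aquantile in limma), a step that left the ratios unchanged. Of the probes, 57.6 to 64% per array were well above background in the Cy3 and 62 to 70.7% in the Cy5 channel; precision is set by there being 4 arrays. Of 39429 probes, 26055 were named through their RefSeq accession in the GRCm38.p6 table and 13374 were not. A gene was represented by its brightest tested probe. The mean log2 ratio of the 4 arrays was set against 0 with limma, and p was adjusted over 24169 probes by Benjamini-Hochberg. The array paired the control and palmitate cultures. The script was tested on simulated data.

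The genes, lists and rules were chosen with earlier results of these data known. Members named in full had 1 sign on 4 arrays and a mean log2 ratio of at least 0.2 in size. The alternatives tried were the processed signals, the value table, median centring, no pairing by array, the methods' t-test, a limit on the coefficient of variation, other probe rules and leaving out each array. Deposited processed log10 ratios were used only to check direction. Peroxisomal targeting signals were not analysed here.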

Additional observations from a re-analysis of the deposited data

Results flagged for a closer look

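Pex19, the chaperone of peroxisomal membrane proteins, had a log2 ratio of -0.198 on array 4, apart from 0.013, -0.02 and 0.016 on arrays 1 to 3: the gap to the nearest of the others was 0.832 of the whole range, above Dixon's critical value for 4 samples. It was the only one of 31 genes examined in this way, and chance alone sets apart about 1 in 20 groups of this size.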

How the results depend on the processing

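Each of the 9 genes described in full kept its sign in all 16 alternatives, but most of these could not have changed it. The rule that picked the genes requires 1 sign on 4 arrays, so leaving out an array could not change the sign. Several other alternatives changed only the filter or the test and left the mean ratio as it was. The value table equalled the processed signals. Apart from the analysis without array 1, the lowest adjusted p among the 9 genes was 0.082, from limma with no replicate block. The smallest sizes came from averaging the probes of a gene: -0.19 for Pex6 and -0.11 for Acot8. With the processed signals the mean was -0.90 for Pex11a and 0.69 for Ech1, and without background subtraction it was -0.79 for Pex11a. These means pass 1.6-fold, a log2 ratio of 0.678 in size, which no peroxisomal gene reached in the main analysis. The array paired the cultures. Ignoring this pairing, with no replicate block, put 3 probes lower and 5 higher past an adjusted p of 0.05 and 1.6-fold, where the paired analysis gave 0 and 0. The same count was 2 higher with 1 probe per gene, 2 higher under a coefficient of variation limit, 13 higher with the processed signals, 13 higher with the value table, 2 lower and 1 higher with the methods' t-test, and 268 lower and 246 higher with median centring in place of loess. Leaving out 1 array gave 0 to 753 lower and 0 to 555 higher, the highest without array 1. By adjusted p alone, with no limit on the fold, it gave 0 to 4 peroxisomal genes lower and 0 to 3 higher, again the highest without array 1. The median of the Pex genes, -0.048, was 0.0093 under median centring and -0.069 to 0.0098 with 1 array left out; that of the other genes, -0.027, was 0.018 under median centring, 0.0025 with the processed signals or the value table and -0.06 to -0.023 with 1 array left out. The difference between the medians, -0.021, ran from -0.031 to 0.069 with 1 array left out, the highest without array 1. The cause of these shifts was not tested. The 4 arrays of 1 dye orientation, 1 of them unlike the rest, limit every comparison.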
